A study of Mus musculus with 16 samples.

Results

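The genes described here mark the identity of endothelial cells, the cells that line blood vessels, and the position of these cells along the vessel tree from artery through capillary to vein. The 41 members were taken by gene symbol from the 55487 genes of the count table. They are 10 transcription factors, 10 receptors and signalling molecules, 11 proteins of the cell surface and matrix, 4 enzymes and other intracellular proteins, 3 arterial genes and 3 venous genes. Genes of cell junctions, barrier transporters and VEGF signalling were kept apart, except for the gap junction gene Gja4 and the transporter gene Slc38a5, taken as arterial and venous genes. All 41 members passed the filter of at least 10 counts in at least 4 mice, as did 18609 genes in all.

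The study sequenced bulk brain RNA of 16 female C57BL/6J mice to ask how the inhibition of CETP, a plasma protein that moves cholesteryl esters between lipoproteins, alters gene expression in the brain. CETPtg mice carry a CETP transgene, because wild-type mice lack this protein, and APPtg/CETPtg mice also carry human APP751 with Swedish and Indiana mutations, which the Thy1 promoter drives in neurons. Both genotypes were heterozygous, received a diet with 1% cholesterol from 11 weeks of age and were injected every day for 11 weeks with the CETP inhibitor evacetrapib at 30 mg per kg or with its vehicle of Kolliphor EL and glucose. The 4 groups of 4 mice are the evacetrapib-treated CETPtg mice A to D, the vehicle-treated CETPtg mice S1 to S4, the evacetrapib-treated APPtg/CETPtg mice E to H and the vehicle-treated APPtg/CETPtg mice S5 to S8.

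Endothelial identity is held by transcription factors of the ETS and SOX families, and in brain vessels it is further shaped by Wnt signals from neural cells. Receptors at the endothelial surface, among them the Tie receptors, Alk1 with its partner endoglin, and the sphingosine 1-phosphate receptor, keep vessels quiescent and their walls tight. Arterial, capillary and venous endothelial cells express partly different genes, and this ordering along the vessel is called zonation.

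The counts on genes summed to between 33684250 and 46800787 in A to D, 28626139 and 37709734 in S1 to S4, 21391335 and 25854334 in E to H, and 21866883 and 55453789 in S5 to S8. Levels are given as CPM, counts scaled to library sizes with TMM factors. In bulk tissue, they include the RNA of a member from every cell type that expresses it, not from endothelial cells alone. The lowest raw count of a member in any mouse was 11, for Myct1, and the highest was 8109, for S1pr1, so that the spread of the least abundant members includes more counting noise. Markers of the labelled tissue were present, since 8 neuronal genes summed to between 6928 and 8105 CPM per mouse, and all 8 endothelial reference genes, which include Pecam1, Cdh5 and Cldn5, were detected. Pituitary genes set mouse E apart, where Gh, Prl, Pomc, Tshb and Cga summed to 852 CPM against at most 20.6 CPM in the other mice.

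Per kilobase of exon, the sphingosine 1-phosphate receptor S1pr1 had the highest level of the members, 44.2 CPM per kb over the 16 mice. It was followed by the membrane protein Itm2a at 21.2 CPM per kb, the Ly6 family members Ly6a and Ly6c1 at 15.4 and 13.6 CPM per kb, and Kank3, a regulator of the actin cytoskeleton, at 9.97 CPM per kb. By group, the mean of Ly6a lay above that of Ly6c1 in each, with 15.1 ± 1.79 against 13.9 ± 1.36 CPM per kb in A to D (SD, n = 4), 12.6 ± 0.931 against 11.7 ± 0.606 CPM per kb in S1 to S4, 18.6 ± 2.71 against 15.6 ± 2.31 CPM per kb in E to H and 15.1 ± 1.85 against 13.3 ± 1.48 CPM per kb in S5 to S8. The highest transcription factor was Sox18 at 4.999 CPM per kb. The arterial members were led by Gja4 at 1.74 CPM per kb and the venous members by Vwf at 1.56 CPM per kb, and the lowest of the 41 were the arterial kinase gene Bmx at 0.387 CPM per kb and Myct1, a membrane protein of endothelial cells, at 0.234 CPM per kb.

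The first comparison asked which members differed by treatment over both genotypes, with 8 mice given evacetrapib and 8 given vehicle. Most members had fold changes above 0, by small amounts. The log2 fold change was above 0 for 39 of the 41 members, where 49.2% of the 18609 genes tested lay above 0, and its median over the members was 0.22 (range -0.06 to 0.49) against -0.0015 over all genes. In bulk tissue, a change in the number of endothelial cells and a change in the RNA of each cell cannot be told apart. A gene is called a DEG below where edgeR's quasi-likelihood test gives an adjusted p no larger than 0.05 and the level differs by 5% or more. None of the 41 members was a DEG, and 2 of the 18609 genes were (0.0107%). At an unadjusted p below 0.05, 24 members were higher (58.5% of members, against 4.12% of all genes) and 0 were lower (0%, against 3.79%). The smallest adjusted p of a member was 0.134, and by other tests the number of members called was 5 with the Wald test of DESeq2, among 59 of all genes (0.317%), and 0 with limma-voom, among 2 (0.0107%).

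In each mouse, the members' log2 CPM was averaged as a deviation from each member's mean over the 16 mice. The mean deviation was 0.16, 0.09, 0.14 and 0.06 in A to D and -0.13, -0.15, -0.05 and 0.11 in S1 to S4. In APPtg/CETPtg mice it was 0.04, 0.02, 0.20 and 0.15 in E to H and -0.29, -0.17, -0.17 and -0.01 in S5 to S8. All 8 evacetrapib-treated mice lay above 0, and vehicle-treated mouse S4 also did, at a level inside the range of A to D. Mouse S5 was the lowest of the 16 for 13 members and S6 for 12, while G was the highest for 11 and A for 10. Within their groups, S4 was the highest vehicle-treated CETPtg mouse for 31 of the 41 members and S8 the highest vehicle-treated APPtg/CETPtg mouse for 21.

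**Figure D1:**
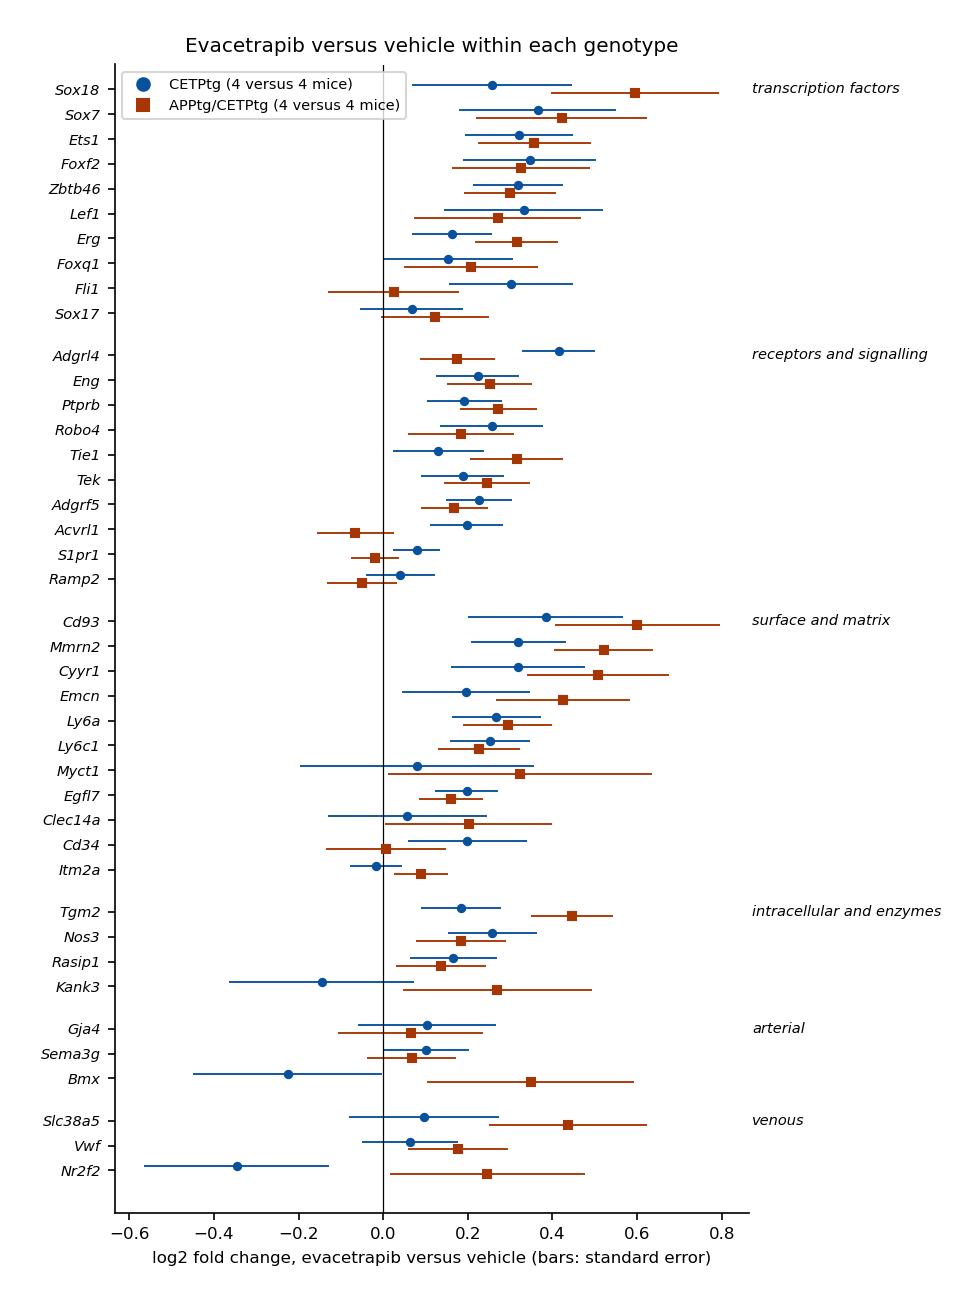
Log2 fold changes of the 41 members between evacetrapib- and vehicle-treated mice, with standard errors as bars, in CETPtg mice (circles) and APPtg/CETPtg mice (squares), ordered by role and by the fold change over all mice. In CETPtg mice 37 and in APPtg/CETPtg mice 38 of the 41 points lie to the right of 0, and many bars reach close to 0.

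The 10 transcription factors were Erg, Fli1 and Ets1 of the ETS family, Sox7, Sox17 and Sox18 of the SOXF group, the forkhead factors Foxq1 and Foxf2, Lef1, a nuclear partner of Wnt signalling, and the zinc finger protein Zbtb46. All 10 had a log2 fold change above 0 over all mice, with a median of 0.31, and 7 of 10 had an unadjusted p below 0.05. Zbtb46 (ENSMUSG00000027583, chr2:181387762-181459426, minus strand, coordinates here and below on GRCm38) was at 11.4, 10.9, 11.4 and 10.5 CPM in A to D and at 9.27, 8.73, 9.14 and 8.35 CPM in S1 to S4. In APPtg/CETPtg mice, it was at 9.70, 13.6, 12.9 and 12.9 CPM in E to H with evacetrapib and at 7.98, 9.46, 10.5 and 11.5 CPM in S5 to S8 with vehicle. The CETPtg groups did not overlap, and among APPtg/CETPtg mice the evacetrapib-treated mouse E lay inside the vehicle range. For Zbtb46, the log2 fold change over all mice was 0.31 (SE 0.0745, adjusted p = 0.216).

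Ets1 was at 10.5, 9.80, 13.8 and 10.3 CPM in evacetrapib-treated CETPtg mice A to D and at 9.45, 8.65, 8.46 and 9.05 CPM in vehicle-treated CETPtg mice S1 to S4. The APPtg/CETPtg mice had 9.997, 10.1, 10.8 and 11.4 CPM in E to H with evacetrapib and 6.17, 7.70, 8.04 and 10.5 CPM in S5 to S8 with vehicle. Ets1 (ENSMUSG00000032035, chr9:32636221-32757820, plus strand), which acts in vessel growth, did not overlap between the CETPtg groups, where mouse C was the highest of all 16. Among APPtg/CETPtg mice, the vehicle-treated mouse S8 reached above E and F. The log2 fold change of Ets1 over all mice was 0.34 (SE 0.0901, adjusted p = 0.274). Sox18 (ENSMUSG00000046470, chr2:181669836-181671640, minus strand), a factor of arterial and lymphatic vessel development, was at 9.52, 10.4, 8.70 and 8.03 CPM in A to D, 7.14, 6.53, 7.96 and 9.09 CPM in S1 to S4, 6.56, 8.44, 11.1 and 11.5 CPM in E to H and 3.76, 8.83, 5.67 and 6.43 CPM in S5 to S8. S5 was the lowest of the 16 and H the highest, and the groups overlapped in both genotypes. Sox18 had a log2 fold change of 0.42 (SE 0.139, adjusted p = 0.444) over all mice.

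Erg, which maintains the endothelial state in adult vessels, was the 1 member whose 8 evacetrapib-treated mice all lay above the 8 vehicle-treated mice, against 0.0376% of all genes, and it is singled out here after its values were seen. Erg stood at 5.47, 5.27, 6.13 and 5.50 CPM in evacetrapib-treated CETPtg mice A to D and at 4.89, 4.84, 5.12 and 5.14 CPM in vehicle-treated CETPtg mice S1 to S4. With the APP transgene added, the level was 5.70, 5.48, 6.22 and 5.94 CPM in E to H and 4.35, 4.19, 4.84 and 5.21 CPM in S5 to S8. The lowest evacetrapib-treated mouse was B, and the highest vehicle-treated mouse was S8, with 5.27 and 5.21 CPM. Erg had a log2 fold change of 0.24 (SE 0.0684, adjusted p = 0.329). The remaining factors had log2 fold changes of 0.39 for Sox7, 0.34 for Foxf2, 0.30 for Lef1, 0.18 for Foxq1, 0.17 for Fli1 and 0.09 for Sox17, and of these 6 the first 3 had an unadjusted p below 0.05.

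The 10 receptors and signalling molecules comprise Tie1 and Tek, the receptor tyrosine kinases of the angiopoietin system, and Ptprb, the phosphatase that restrains Tek. Others are Eng and Acvrl1, which encode endoglin and Alk1 for signals of the BMP family, S1pr1, the guidance receptor Robo4, Ramp2, which makes the calcitonin receptor-like receptor a receptor for adrenomedullin, and the adhesion receptors Adgrl4 and Adgrf5. Of the 10, 9 had a log2 fold change above 0 over all mice, with a median of 0.22, and 7 had an unadjusted p below 0.05.

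Adgrl4 was at 23.8, 18.3, 20.4 and 20.6 CPM in evacetrapib-treated CETPtg mice A to D and at 15.2, 14.3, 17.4 and 15.6 CPM in vehicle-treated CETPtg mice S1 to S4. In APPtg/CETPtg mice, it was at 15.2, 17.8, 18.5 and 17.3 CPM in E to H with evacetrapib and at 15.1, 15.6, 13.6 and 16.4 CPM in S5 to S8 with vehicle. Adgrl4 (ENSMUSG00000039167, chr3:151437887-151545086, plus strand), an orphan receptor of endothelial cells, was highest in mouse A. The CETPtg groups did not overlap, whereas E lay within the range of S5 to S8. Over all mice, the log2 fold change was 0.30 (SE 0.0659, adjusted p = 0.169). Ptprb was at 55.8, 51.4, 55.5 and 44.2 CPM in evacetrapib-treated CETPtg mice A to D and at 44.8, 40.5, 41.6 and 54.7 CPM in vehicle-treated CETPtg mice S1 to S4. The APPtg/CETPtg mice had 43.8, 42.6, 44.96 and 45.3 CPM in E to H with evacetrapib and 34.7, 34.2, 35.2 and 41.6 CPM in S5 to S8 with vehicle. For Ptprb (ENSMUSG00000020154, chr10:116275523-116389535, plus strand), it was the APPtg/CETPtg groups that did not overlap, while in CETPtg mice S4 was close to the highest evacetrapib-treated mice and D was below S1. Between treatments, Ptprb had a log2 fold change of 0.23 (SE 0.0627, adjusted p = 0.290).

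Adgrf5 (ENSMUSG00000056492, chr17:43360451-43459557, plus strand), an adhesion receptor of capillary endothelium, was at 51.4, 46.8, 49.4 and 43.4 CPM in A to D and at 41.9, 37.7, 38.3 and 45.7 CPM in S1 to S4. With the APP transgene added, the level was 38.3, 47.3, 43.5 and 40.8 CPM in E to H and 38.3, 33.4, 38.3 and 40.8 CPM in S5 to S8. The groups overlapped in both genotypes, through D and S4 and through E, H, S5, S7 and S8. Its log2 fold change over all mice was 0.20 (SE 0.0544, adjusted p = 0.295). S1pr1 was at 139, 137, 142 and 131 CPM in A to D, at 124, 124, 137 and 136 CPM in S1 to S4, at 122, 131, 141 and 145 CPM in E to H and at 128, 136, 136 and 146 CPM in S5 to S8. S1pr1 (ENSMUSG00000045092, chr3:115710433-115715072, minus strand) was highest in S8 and lowest in E, and the groups overlapped in both genotypes. Over all mice, S1pr1 had a log2 fold change of 0.03 (SE 0.0403, adjusted p = 0.910).

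Tek and Tie1 had log2 fold changes of 0.22 and 0.22, Eng of 0.24 and Robo4 of 0.22, all at an unadjusted p below 0.05 and none as a DEG. Ramp2 was at -0.0031 with a SE of 0.0572, and Acvrl1 at 0.07 with a SE of 0.0678. Ramp2 shares 33.4% of its exon length with Vps25 on the same strand, so reads there could not be assigned to one gene by their position.

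The 11 proteins of the surface and matrix were the sialomucins Emcn and Cd34, the secreted factor Egfl7, the C-type lectin family receptors Clec14a and Cd93 with their matrix ligand Mmrn2, the membrane proteins Cyyr1, Myct1 and Itm2a, and the GPI-anchored proteins Ly6c1 and Ly6a. All 11 had a log2 fold change above 0 over all mice, with a median of 0.24, and 7 had an unadjusted p below 0.05. Mmrn2 had the smallest p of the 41 members in the comparison over all mice. Mmrn2 was at 6.74, 6.23, 5.73 and 6.58 CPM in evacetrapib-treated CETPtg mice A to D and at 5.55, 4.54, 4.83 and 5.39 CPM in vehicle-treated CETPtg mice S1 to S4. In APPtg/CETPtg mice, it was at 6.49, 5.27, 6.82 and 6.59 CPM in E to H with evacetrapib and at 3.72, 4.37, 4.22 and 5.04 CPM in S5 to S8 with vehicle. Neither pair of groups overlapped within its genotype, and over all mice only F among the evacetrapib-treated mice lay below the highest vehicle-treated mouse, S1. The log2 fold change of Mmrn2 (ENSMUSG00000041445, chr14:34375465-34404287, plus strand) was 0.42 (SE 0.0822, adjusted p = 0.134). Mmrn2 and Tgm2 were among the DEGs that the study selected in these mice, so their place here is not independent evidence. The study used DESeq2 with the same thresholds, whereas DEG otherwise refers here to edgeR's test. The Wald test of DESeq2 also called both over all mice here.

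Cd93 was at 6.44, 5.87, 6.66 and 6.89 CPM in evacetrapib-treated CETPtg mice A to D and at 3.96, 4.22, 6.38 and 5.25 CPM in vehicle-treated CETPtg mice S1 to S4. The APPtg/CETPtg mice had 4.83, 3.89, 6.86 and 6.82 CPM in E to H with evacetrapib and 2.81, 4.46, 2.98 and 4.31 CPM in S5 to S8 with vehicle. Cd93 (ENSMUSG00000027435, chr2:148436640-148443563, minus strand) had the largest log2 fold change of the members over all mice, 0.49 (SE 0.133, adjusted p = 0.290). The groups overlapped in both genotypes, since S3 lay above B, and S6 and S8 lay above F. Ly6a was at 20.8, 18.8, 17.5 and 15.7 CPM in evacetrapib-treated CETPtg mice A to D and at 15.8, 14.6, 13.9 and 16.4 CPM in vehicle-treated CETPtg mice S1 to S4. With the APP transgene added, the level was 20.6, 23.04, 26.8 and 19.4 CPM in E to H and 17.6, 16.4, 17.3 and 21.4 CPM in S5 to S8. Ly6a (ENSMUSG00000075602, chr15:74994877-74998031, minus strand), also known as Sca-1, was highest in G, and D in CETPtg mice and S8 in APPtg/CETPtg mice made the groups overlap. Between treatments, Ly6a had a log2 fold change of 0.28 (SE 0.0727, adjusted p = 0.253).

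Ly6c1 (ENSMUSG00000079018, chr15:75044018-75048830, minus strand), a marker of mouse brain capillaries, was at 26.6, 22.1, 21.7 and 22.7 CPM in A to D and at 18.8, 19.2, 19.3 and 21.1 CPM in S1 to S4. In APPtg/CETPtg mice, it was at 23.5, 28.3, 30.5 and 22.4 CPM in E to H with evacetrapib and at 18.8, 24.4, 22.4 and 23.6 CPM in S5 to S8 with vehicle. The CETPtg groups did not overlap, and the APPtg/CETPtg groups overlapped through E and H and through S6 to S8. Its log2 fold change over all mice was 0.24 (SE 0.0665, adjusted p = 0.302). Ly6a and Ly6c1 belong to a family of similar genes, between which reads can be divided with error. Egfl7 was at 27.6, 30.4, 28.9 and 27.1 CPM in evacetrapib-treated CETPtg mice A to D and at 24.7, 25.02, 24.7 and 25.04 CPM in vehicle-treated CETPtg mice S1 to S4. The APPtg/CETPtg mice had 30.5, 36.1, 30.8 and 39.3 CPM in E to H with evacetrapib and 28.97, 29.2, 29.3 and 34.3 CPM in S5 to S8 with vehicle. Egfl7 (ENSMUSG00000026921, chr2:26580014-26593120, plus strand) varied little among S1 to S4 and lay below A to D there, while S8 overlapped with E and G. Over all mice, the log2 fold change was 0.18 (SE 0.0522, adjusted p = 0.334).

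Itm2a was at 36.1, 36.8, 40.5 and 35.6 CPM in A to D, at 36.96, 36.5, 37.8 and 39.5 CPM in S1 to S4, at 38.3, 33.2, 41.6 and 37.6 CPM in E to H and at 34.05, 37.7, 34.2 and 35.6 CPM in S5 to S8. The groups of Itm2a (ENSMUSG00000031239, chrX:107397099-107403376, minus strand) overlapped in both genotypes, and its log2 fold change was 0.03 (SE 0.0447, adjusted p = 0.909). Cyyr1 was at a log2 fold change of 0.41 and Emcn, a marker of capillary and venous endothelium, at 0.30, both at an unadjusted p below 0.05. Myct1, Clec14a and Cd34, the last a marker shared with blood progenitors, were at 0.19, 0.13 and 0.10 with SEs of 0.203, 0.134 and 0.0997.

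**Figure D2:**
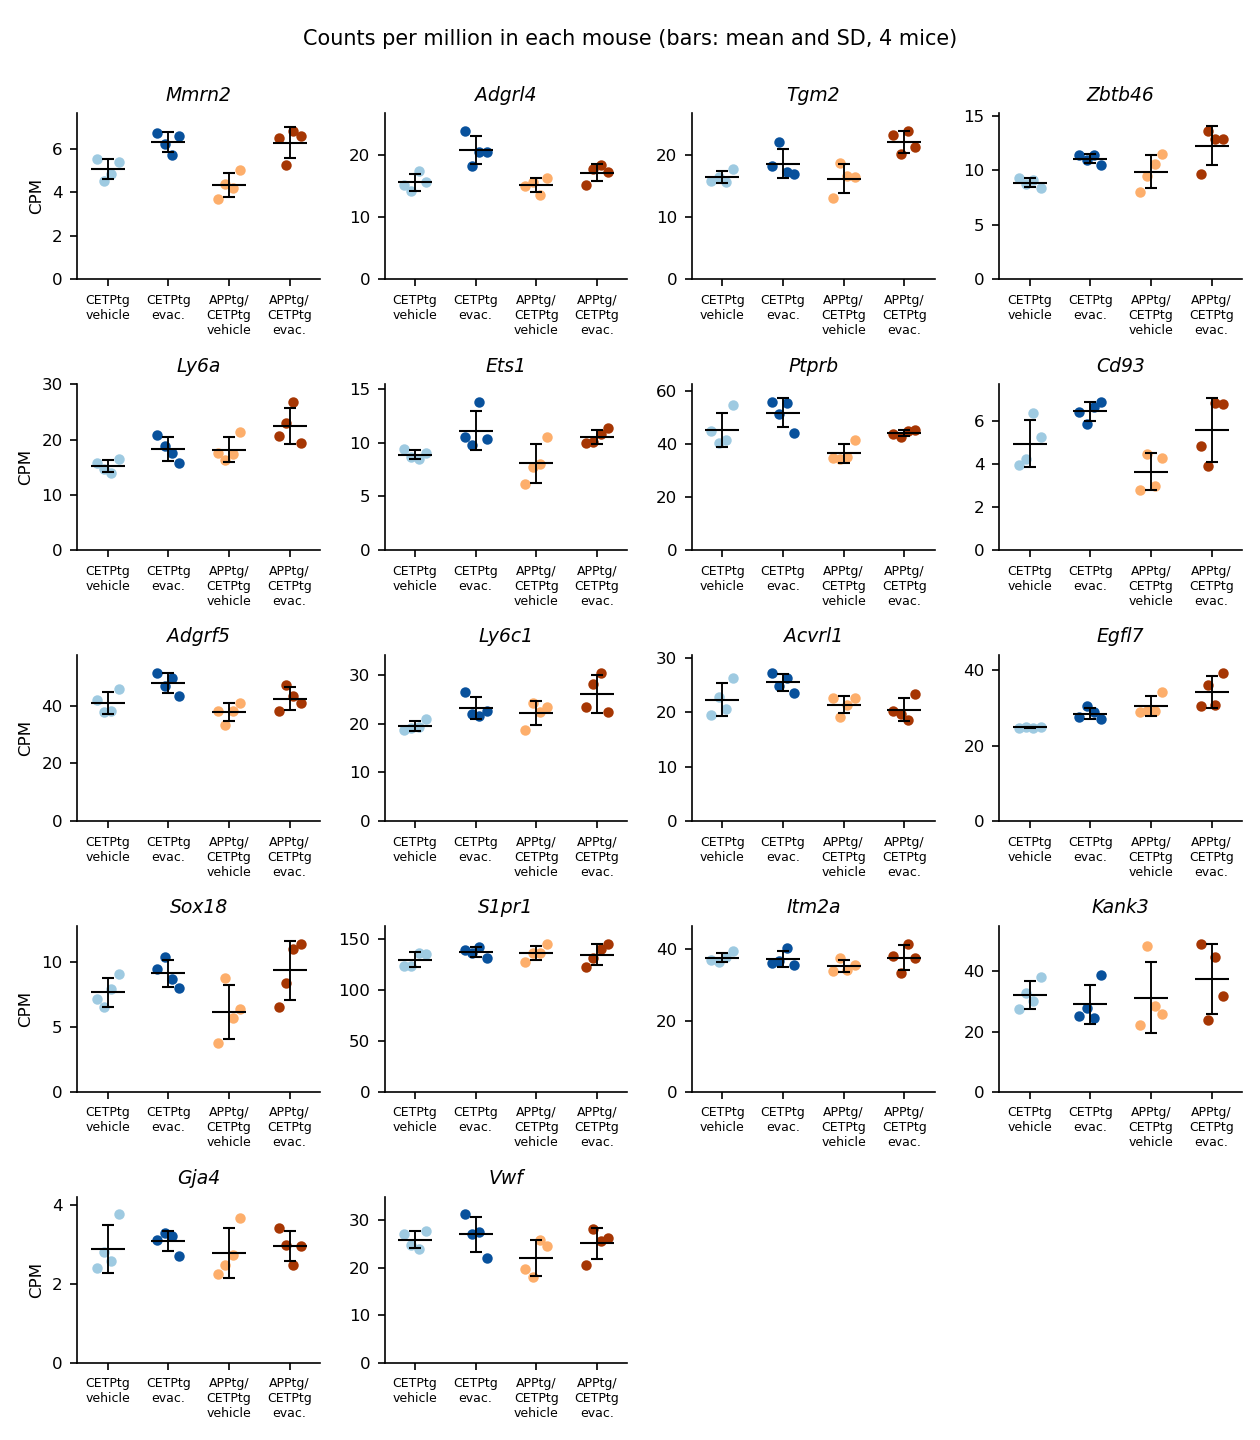
CPM of 18 members in each of the 16 mice by group, with the mean and SD of 4 mice as bars and each axis starting at 0. Mmrn2 shows 4 evacetrapib-treated mice above 4 vehicle-treated mice in each genotype, and S1pr1, Itm2a, Kank3 and Gja4 show groups that overlap.

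The 4 intracellular proteins were Nos3, the endothelial nitric oxide synthase, Tgm2, a transglutaminase that cross-links proteins, Rasip1, which acts in the formation of the vessel lumen, and Kank3. All 4 had a log2 fold change above 0 over all mice, and 3 had an unadjusted p below 0.05. Tgm2 was at 18.3, 22.02, 17.2 and 16.9 CPM in evacetrapib-treated CETPtg mice A to D and at 15.8, 16.4, 15.6 and 17.7 CPM in vehicle-treated CETPtg mice S1 to S4. With the APP transgene added, the level was 23.2, 20.1, 23.8 and 21.2 CPM in E to H and 13.1, 18.6, 16.5 and 16.5 CPM in S5 to S8. Tgm2 (ENSMUSG00000037820, chr2:158116402-158146436, minus strand) did not overlap between the APPtg/CETPtg groups, while in CETPtg mice only A and B were above S4. Over all mice, its log2 fold change was 0.31 (SE 0.0729, adjusted p = 0.181). Kank3 (ENSMUSG00000042099, chr17:33810519-33822918, plus strand) was at 25.3, 27.7, 24.6 and 38.7 CPM in A to D, 27.4, 32.95, 30.2 and 38.1 CPM in S1 to S4, 49.2, 23.97, 44.7 and 31.9 CPM in E to H and 22.2, 48.5, 28.5 and 25.9 CPM in S5 to S8. E, G and S6 were the highest and S5 and F the lowest, so the spread within each APPtg/CETPtg group exceeded the difference between their means. Kank3 had a log2 fold change of 0.06 (SE 0.160, adjusted p = 0.966). Nos3 was at 0.22 and Rasip1 at 0.15.

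For zonation, the arterial members were Sema3g, a semaphorin, Gja4, the gap junction protein connexin 37, and the kinase Bmx. The venous members were Nr2f2, the transcription factor COUP-TFII, Vwf, the von Willebrand factor, and the amino acid transporter Slc38a5. Which cells the bulk counts of these genes came from was not tested, so they are not a measure of arteries or veins alone. At an unadjusted p below 0.05, 0 of the 3 arterial and 0 of the 3 venous members were higher or lower over all mice. Among all genes, 4.12% were higher and 3.79% lower, and counts of 0 among 3 lie near these shares. The arterial median log2 fold change was 0.08 and the venous median 0.12, both below the medians of the transcription factors, receptors and surface proteins, and this difference was not tested. Gja4 was at 3.13, 3.30, 3.21 and 2.72 CPM in A to D, at 2.40, 2.82, 2.57 and 3.77 CPM in S1 to S4, at 3.43, 3.002, 2.49 and 2.97 CPM in E to H and at 2.27, 2.48, 2.73 and 3.68 CPM in S5 to S8. S4 and S8 had the highest Gja4 levels of the 16 mice, although both received vehicle, and the groups overlapped (ENSMUSG00000050234, chr4:127311421-127314039, minus strand). Gja4 had a log2 fold change of 0.09 (SE 0.115, adjusted p = 0.913). Vwf was at 31.3, 27.1, 27.6 and 22.2 CPM in A to D, at 27.2, 24.7, 24.01 and 27.8 CPM in S1 to S4, at 20.6, 28.1, 25.7 and 26.3 CPM in E to H and at 19.8, 18.01, 25.9 and 24.6 CPM in S5 to S8. Vwf (ENSMUSG00000001930, chr6:125546774-125686679, plus strand), which is stored in endothelial granules, was highest in A and lowest in S6, with groups that overlapped and a log2 fold change of 0.12 (SE 0.0809, adjusted p = 0.771). Sema3g, Bmx, Slc38a5 and Nr2f2 had log2 fold changes of 0.08, 0.04, 0.26 and -0.06, with SEs of 0.0710, 0.174, 0.132 and 0.169. Within APPtg/CETPtg mice, 1 of the 3 venous members was higher at an unadjusted p below 0.05, against 4.70% of all genes. It was Slc38a5 at 0.44 (SE 0.187, adjusted p = 0.502).

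Within CETPtg mice, 4 evacetrapib-treated mice were compared with 4 vehicle-treated mice. The members' median log2 fold change was 0.20, and 37 of 41 were above 0. Over all genes the median was -0.0024, and 49.1% were above 0. In edgeR's test 0 of 41 members and 0 of 18609 genes (0%) were DEGs, and DESeq2 and limma-voom called 0 members and 0 genes as well. At an unadjusted p below 0.05, 15 members were higher (36.6%, against 3.06% of all genes) and 0 lower (0%, against 2.74%). For 8 members, Adgrl4, Egfl7, Erg, Ets1, Ly6c1, Mmrn2, Sox7 and Zbtb46, the 4 evacetrapib-treated mice all lay above the 4 vehicle-treated mice, which was so for 2.10% of all genes. The smallest p belonged to Adgrl4, with a log2 fold change of 0.41 (SE 0.0853, adjusted p = 0.715), followed by Zbtb46 with 0.32 (SE 0.107, adjusted p = 0.837). The 4 members below 0 were Nr2f2 at -0.35, Bmx at -0.23, Kank3 at -0.15 and Itm2a at -0.02. The number of members at an unadjusted p below 0.05 was 8 without mouse A, 8 without S1 and 22 without S4. It was 6 when only the index columns that hold both treatments were used, which keep C and D but not A and B beside S1 to S4. Of all genes, 1079 of 18609 passed in the main fit in either direction. The number was 785 of 18455 without A, 1025 of 18542 without S1, 1248 of 18577 without S4 and 583 of 18279 in those index columns.

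Within APPtg/CETPtg mice, the median log2 fold change of the members was 0.25, and 38 of 41 were above 0. Over all genes the median was -0.0011, and 49.6% were above 0. None of the 41 was a DEG in edgeR's test, where 8 of all genes were (0.0430%), while the Wald test of DESeq2 called 2 members, Mmrn2 and Tgm2, among 73 of all genes (0.392%), and limma-voom called 0, among 7 (0.0376%). At an unadjusted p below 0.05, 18 members were higher (43.9%, against 4.70% of all genes) and 0 lower (0%, against 4.32%). Groups without overlap were seen for 7 members, Cyyr1, Emcn, Erg, Mmrn2, Ptprb, Tek and Tgm2, against 1.97% of all genes. Tgm2 had the smallest p, with a log2 fold change of 0.45 (SE 0.0976, adjusted p = 0.180), and Mmrn2 the next, with 0.52 (SE 0.117, adjusted p = 0.199). Acvrl1, Ramp2 and S1pr1 were below 0, at -0.07, -0.05 and -0.02. Leaving out S5 gave 12 members at an unadjusted p below 0.05, and 1343 of 18592 genes in either direction, against 1677 of 18609 in the main fit.

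The difference between the effects of evacetrapib in the genotypes was tested in the same model as an interaction. No member and no gene passed (0 of 41 and 0 of 18609, 0%) with edgeR, DESeq2 called 0 members among 2 genes (0.0107%), and limma-voom called 0 members and 0 genes. At an unadjusted p below 0.05 there were 0 members with a higher effect in APPtg/CETPtg mice and 1 with a lower effect, Acvrl1, against 3.65% of all genes with a higher and 3.18% with a lower effect. With single mice left out, 0 members had a lower effect in 8 of the 16 fits, and the number with a higher effect was 3 without S6, 2 without F, 1 without B, S4, S5 or S7 and 0 in the other 10 fits. Acvrl1 was at 27.2, 24.9, 26.2 and 23.5 CPM in A to D, at 19.4, 22.8, 20.6 and 26.3 CPM in S1 to S4, at 20.3, 19.6, 18.7 and 23.4 CPM in E to H and at 22.5, 19.2, 21.3 and 22.5 CPM in S5 to S8. Acvrl1 (ENSMUSG00000000530, chr15:101128522-101145336, plus strand) was higher in A to D than in S1 to S3, with S4 within the range of A to D, whereas among APPtg/CETPtg mice G was the lowest and H the highest, so that the groups overlapped. The difference of its log2 fold changes was -0.26 (SE 0.125, adjusted p = 0.725). Adgrl4 came next, with -0.24 (SE 0.123, adjusted p = 0.738), so its larger fold change in CETPtg mice was not shown to differ from that in APPtg/CETPtg mice. Nr2f2 was below 0 in CETPtg mice and above 0 in APPtg/CETPtg mice, with a difference of 0.59 (SE 0.318, adjusted p = 0.739).

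The comparison of the genotypes asked whether the APP transgene goes along with other levels of these genes. Of the 41 members, 3 were DEGs between APPtg/CETPtg and CETPtg mice (7.32%), against 17.7% of all genes. At an unadjusted p below 0.05, 4 members were higher in APPtg/CETPtg mice (9.76%, against 15.8% of all genes) and 6 lower (14.6%, against 14.7%), and whether members and other genes differ in these shares was not tested. Egfl7 was upregulated in APPtg/CETPtg mice, with a log2 fold change of 0.28 (SE 0.0522, adjusted p = 0.00120). Its level ranged from 28.97 to 39.3 CPM with a median of 30.6 in the 8 APPtg/CETPtg mice and from 24.7 to 30.4 CPM with a median of 26.1 in the 8 CETPtg mice. Ly6a was also upregulated, with 0.29 (SE 0.0727, adjusted p = 0.00992), and ranged from 16.4 to 26.8 CPM with a median of 20.02 in the 8 APPtg/CETPtg mice and from 13.9 to 20.8 CPM with a median of 16.1 in the 8 CETPtg mice. Ptprb was downregulated, with -0.27 (SE 0.0627, adjusted p = 0.00552), and ranged from 34.2 to 45.3 CPM with a median of 42.1 in the 8 APPtg/CETPtg mice and from 40.5 to 55.8 CPM with a median of 48.1 in the 8 CETPtg mice. The genotypes overlapped for each of these 3 genes. The median log2 fold change of the members was -0.05, and with single mice left out it lay between -0.11 (without S8) and -0.03 (without S4), while Egfl7, Ly6a and Ptprb stayed DEGs in all 16 fits and 0 or 1 further member was called. The Wald test of DESeq2 called 6 members, Acvrl1, Adgrf5 and Ly6c1 in addition, among 3719 of all genes (19.98%). In limma-voom, the same 3 members were called, among 3371 of all genes (18.1%). The libraries of the genotypes share 0 columns of the index plate and those of the treatments 0 rows, so genotype and column, like treatment and row, cannot be told apart.

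Genes outside the 41 were read from lists of the same pathways, where higher and lower mean an unadjusted p below 0.05 over all mice and values are log2 fold changes between treatments. All 8 endothelial reference genes, Pecam1, Cdh5, Cldn5, Esam, Icam2, Kdr, Flt1 and Podxl, were above 0, with a median of 0.30, and 6 were higher, led by Flt1 at 0.30 and Pecam1 at 0.31 with an adjusted p of 0.134 and 0.169. The study selected several of these genes, Flt1, Pecam1, Cdh5, Kdr and Podxl, as DEGs in the same mice, so this list is not independent evidence. The list summed to 242, 209.6, 218 and 214 CPM in A to D, 175, 174, 174 and 213 CPM in S1 to S4, 213, 210.4, 253 and 234 CPM in E to H and 153, 181, 175 and 207 CPM in S5 to S8. As for the members, S4 and S8 were the highest vehicle-treated mice of their genotypes, S4 inside the range of A to D and S8 just below E to H. Flt1 was the most abundant at 65.9 CPM, and none of the list was at 0.

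Around the members Tie1, Tek and Ptprb, 3 of 4 angiopoietin and Tie genes were tested, with 1 higher and 0 lower and a median of 0.07, which was -0.23 without and 0.48 with the APP transgene. They were led by Angpt2, often an antagonist of Tek, at 0.48, and by its agonist Angpt1 at -0.13. Within genotypes, Angpt2 was at 0.49 without and 0.48 with the APP transgene and Angpt1 at -0.23 and -0.01. The third gene, Svep1, was at 0.07 over all mice, -0.61 (SE 0.229, adjusted p = 0.837) in CETPtg mice and 0.90 (SE 0.255, adjusted p = 0.278) in APPtg/CETPtg mice, with a difference of 1.51 (SE 0.343, adjusted p = 0.703). Around the members Eng and Acvrl1, 10 of 12 genes of Alk1 and endoglin signalling were tested, without the ligand genes Gdf2 and Bmp10, with 2 higher, 1 lower and a median of 0.02. The inhibitory Smad7 was at 0.13, the target gene Id1 at 0.15 and Smad9, named after its values were seen, at -0.10. Around S1pr1, 1 of 7 sphingosine 1-phosphate genes was higher, Sphk2 at 0.15, next to S1pr3 at 0.10, with 0 lower and a median of 0.05. Around Ramp2, 0 of 4 genes were higher or lower, namely the ligand gene Adm, the receptor gene Calcrl, and Ramp1 and Ramp3, which can take the place of Ramp2 at this receptor, with a median of -0.01 and Ramp3 at 0.19 and Ramp1 at 0.04.

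For zonation, 1 of 14 arterial and Notch genes was higher and 0 lower, with Dll4 at 0.31 and Unc5b at 0.11 and a median of 0.01. Of 7 tested venous and postcapillary genes, 2 were higher, Ackr1 at 0.24 and Il1r1 at 0.25, 0 were lower, and the median was 0.14. Around the members Lef1, Foxq1 and Foxf2, 2 of 13 genes of Wnt signalling in brain endothelium were higher, Axin2 at 0.11 and Lrp5 at 0.14, and 0 lower, with a median of 0.02. Of 13 other endothelial transcription factors, 1 was higher, Epas1 at 0.09, next to Elk3 at 0.16, with 0 lower and a median of 0.10 beside 0.31 for the members' factors. Of 10 barrier transporters, 2 were higher and 1 lower, with a median of 0.02, led by the efflux pump gene Abcb1a at 0.18 and the lipid transporter gene Mfsd2a at -0.25.

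Between genotypes, 17 of the 89 tested genes of these lists were DEGs (19.1%), near the 17.7% of all genes, 3 of them higher and 14 lower in APPtg/CETPtg mice, where 1740 of all genes were higher and 1559 lower. The lower ones were Slc22a8 at -0.21, Tfrc at -0.26 and Slco1a4 at -0.24, Bmpr2 at -0.39 and Smad5 at -0.19, Jag1 at -0.29 and Notch1 at -0.20, Ephb4 at -0.27, Lrp6 at -0.16, and Epas1, Etv6, Foxo1, Foxc2 and Mef2c between -0.61 and -0.19. Ramp3 at 0.33, Ramp1 at 0.22 and Wnt7b at 0.14 were higher.

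Markers of cells that lie beside the endothelium also had medians above 0. Of 8 smooth muscle genes, 7 were above 0 and 3 were higher, with a median of 0.33 (0.36 without and 0.19 with the APP transgene), and Myh11 was a DEG at 0.56 (SE 0.0802, adjusted p = 0.0193), while Acta2 at 0.58 (SE 0.105, adjusted p = 0.129) was not. In 9 of the 16 fits with a mouse left out and in the index columns with both treatments, no gene was a DEG over all mice, so Myh11 was not one there. The study had selected Myh11, Acta2 and Tagln in these mice as well. The smooth muscle genes summed to 65.8, 79.1, 70.4 and 77.2 CPM in A to D, 57.9, 60.6, 55.5 and 68.8 CPM in S1 to S4, 70.9, 73.1, 72.4 and 79.96 CPM in E to H and 57.8, 68.9, 58.1 and 67.3 CPM in S5 to S8, led by Mylk at 19.5 CPM. Of 10 pericyte genes, 10 were above 0 and 4 were higher, with Rgs5 at 0.25 and Vtn at 0.20 and a median of 0.15, which was 0.07 without and 0.21 with the APP transgene. The pericyte genes summed to 227, 226, 231 and 236 CPM in A to D, 209, 215, 209 and 235 CPM in S1 to S4, 229.7, 233, 256 and 248 CPM in E to H and 188, 177, 193 and 228 CPM in S5 to S8, led by Rgs5 at 70.2 CPM. In the pericyte sum, S4 and S8 were the highest vehicle-treated mice of their genotypes, as for the members, and in the smooth muscle sum S4 and S6 were. None of these markers was at 0, and their part in the members' differences was not tested.

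Of 9 genes of fibroblasts and meninges, 2 were higher, Col3a1 at 0.41 and Col1a1 at 0.27, with a median of 0.19, which was 0.01 without and 0.41 with the APP transgene, where 0 and 5 were higher. They summed to 65.7, 60.8, 64.1 and 74.1 CPM in A to D, 71.3, 58.7, 77.2 and 55.2 CPM in S1 to S4, 78.96, 72.9, 80.2 and 75.4 CPM in E to H and 45.8, 62.1, 64.4 and 63.5 CPM in S5 to S8, led by Col1a2 at 19.5 CPM. Of 4 genes of perivascular macrophages, 2 were higher, F13a1 at 0.34 and Pf4 at 0.52, with a median of 0.23, which was -0.04 without and 0.52 with the APP transgene, where 0 and 3 were higher. They summed to 6.99, 6.08, 6.69 and 8.31 CPM in A to D, 8.22, 6.72, 7.25 and 7.61 CPM in S1 to S4, 10.9, 9.49, 9.95 and 9.04 CPM in E to H and 6.98, 7.39, 7.16 and 7.76 CPM in S5 to S8, led by Mrc1 at 3.67 CPM. In the interaction test of edgeR, which compares the effect of evacetrapib between genotypes, no gene of any list was a DEG, as given above for all genes. No marker of either list was at 0, and their part in the members' values was not tested.

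Choroid plexus epithelium, whose vessels have a fenestrated endothelium, differed in amount between the samples. Its 8 genes summed to 15.2, 125, 41.9 and 22.5 CPM in A to D, 20.3, 21.5, 171 and 16.4 CPM in S1 to S4, 19.7, 15.1, 25.01 and 30.2 CPM in E to H and 18.3, 20.8, 121 and 469 CPM in S5 to S8, led by Ttr at 50.9 CPM. S8, S3, B and S7 were the highest, and mice of both treatments and genotypes were among the lowest. Over all mice, 0 of the 8 were higher and 2 lower, Slc4a5 at -1.61 and Kcnj13 at -0.76, with a median of -0.60. The median was -0.13 without and -1.19 with the APP transgene, where 0 and 5 were lower. Lymphatic endothelium is found in the meninges. Of 4 tested genes listed for it, 1 was higher, with Flt4 at 0.22 and Prox1 at 0.06 and a median of 0.06. Ccl21a was at 0 in every mouse, and Prox1 was the most abundant at 13.5 CPM. Which cells the counts of Prox1 and the other genes of this list came from was not tested.

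The main cells of brain tissue had medians near 0 between treatments. They were -0.01 for 8 neuronal genes (Gad2 at -0.10 and Rbfox3 at -0.04), 0.02 for 8 astrocytic genes (Slc1a2 at 0.19 and Aldoc at -0.10), -0.01 for 7 oligodendrocytic genes (Cldn11 at -0.10 and Mobp at -0.04) and 0.0049 for 9 microglial genes (Fcrls at 0.14 and P2ry12 at -0.06), and only Slc1a2 was higher and Aldoc lower. Of 6 tested blood cell genes, 0 were higher or lower, with Ptprc at -0.07 and Alas2 at 0.16 and a median of 0.02 (0.37 without and -0.40 with the APP transgene), and the list, led by Hbb-bs at 66.6 CPM, summed to 96.4 to 292 CPM in A to D, 96.5 to 162 CPM in S1 to S4, 73.4 to 141 CPM in E to H and 100.4 to 234 CPM in S5 to S8. The 1 tested pituitary gene, Pomc, was at 1.49, and mouse E carried most pituitary counts. With any 1 of the 16 mice left out, E included, the members' median log2 fold change within APPtg/CETPtg mice was between 0.19 and 0.29. Between genotypes, 12 of the 82 tested genes of the cell lists were DEGs (14.6%, against 17.7% of all genes), higher in APPtg/CETPtg mice for Ndufa4l2, Cd163, Tmem119, C1qa, C1qb, Aldoc and Stmn2 and lower for Slc1a2, Cldn11, Mobp, Mbp and Prox1.

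**Figure D3:**
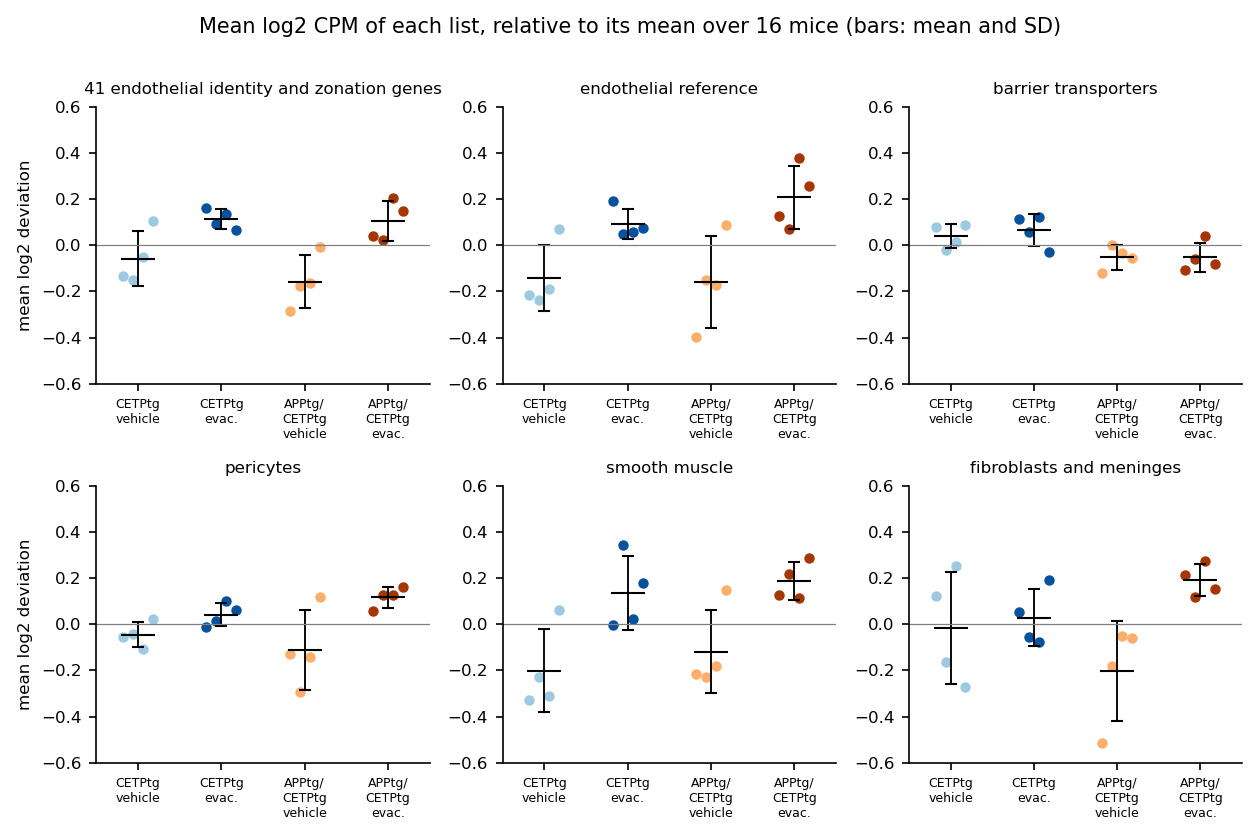
Mean log2 CPM of the 41 members and of 5 other lists in each mouse, as deviation from each gene's mean over the 16 mice, with the mean and SD of 4 mice as bars. The members, the endothelial reference, pericyte and smooth muscle genes have higher group means with evacetrapib in both genotypes, and the barrier transporters have group means close to each other in APPtg/CETPtg mice.

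Because ETS, SOX and LEF factors are themselves members, the 250 bases upstream of gene starts were searched for short letter strings on both strands. RefSeq promoters on GRCm38.p6 were at hand for 25 of the 41 members and for 27025 genes in all. The ETS core GGAA, or TTCC on the other strand, was found for 23 of the 25 members and for 94.2% of all genes. The longer string CAGGAAG, or CTTCCTG on the other strand, holds that core and was found for 10 of 25 members (40%) and 12.1% of all genes, while CCGGAAG, or CTTCCGG on the other strand, which also holds it, was found for 0 of 25 and 7.83%. The SOX core ACAAT, or ATTGT on the other strand, was found for 11 of 25 and 30.9%, and the TCF/LEF core CTTTGA, or TCAAAG on the other strand, for 4 of 25 and 15.8%. These are matches of letters and no evidence of binding, and genes with several starts had more than 1 window.

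CAGGAAG was taken for display after these counts were seen. Stretches of 60 bases around its match closest to the upstream end are shown for Adgrf5, Egfl7 and Itm2a, which held it and are among the 18 members that a rule chose for values in every mouse. Erg and 6 further members also held it and are not shown. The stretches lie outside annotated exons. The first base of the match lies 57 bases before the RefSeq start of Adgrf5, 90 and 81 bases before 2 RefSeq starts of Egfl7 and 243 bases before that of Itm2a, and these starts differ from the GENCODE starts given above.
Adgrf5, chr17:43360348-43360407, plus strand: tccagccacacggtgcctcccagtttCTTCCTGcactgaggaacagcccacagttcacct
Egfl7, chr2:26580967-26581026, plus strand: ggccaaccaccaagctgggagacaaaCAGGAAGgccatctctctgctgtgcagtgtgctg
Egfl7, chr2:26583758-26583817, plus strand: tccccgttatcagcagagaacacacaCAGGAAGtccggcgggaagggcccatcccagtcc
Itm2a, chrX:107403551-107403610, minus strand: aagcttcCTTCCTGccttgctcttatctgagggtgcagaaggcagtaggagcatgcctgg
The capitals mark CTTCCTG in Adgrf5 and Itm2a and CAGGAAG in both stretches of Egfl7.

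Some members share exon sequence with other genes. Foxq1 overlaps A530084C06Rik on the opposite strand over 66.1% of its exon length and Nos3 overlaps Gm15587 on the opposite strand over 25.2%, and whether the counting used strand is not given in the sources used here. Rasip1 shares 20.4% of its exon length with Izumo1 on the same strand and 15.6% with A030001D20Rik on the opposite strand. Also on the opposite strand, Sox17 overlaps Gm37587 over 16.8%, Lef1 overlaps Gm43352 over 13.7%, and Tgm2 overlaps Gm20412 over 13.7% and Rprd1b, with a mean count of 977 per mouse, over 8.03%. Apart from Ramp2, described above, all other overlaps cover 7.46% of a member or less. Among them, Kank3 shares 88 bases of exon with Rps28 on the opposite strand. Rps28 had a mean count of 3357 per mouse, against 489 to 1445 counts of Kank3. Whether reads of Rps28 were counted for Kank3 was not tested. The values of Foxq1, Nos3, Rasip1, Sox17, Lef1, Tgm2 and Ramp2 are uncertain to the extent of their overlaps, and the level of Kank3 is uncertain as well.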

How the data were processed

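Bulk brain RNA of 16 mice, 4 in each of 4 groups, was measured. Per the study's methods, the authors trimmed reads of directional poly(A) libraries with Trimmomatic 0.39, aligned them to mm10 with STAR 2.7.8a, marked duplicates with Picard 2.0.1 and deposited raw counts per gene from HTSeq-count. For Picard, the study's list of tools gives another version. The annotation and the strand setting of the counting are not stated. The deposited normalized values were not used here. From the counts, genes reaching 10 counts in 4 or more mice (18609) were scaled by TMM and tested with edgeR 4.0.16 (R 4.3.3). The quasi-likelihood tests had Benjamini-Hochberg adjustment over all 18609 genes. Treatment and genotype over all mice were each tested with the other factor as an added term of the model. The comparisons within genotypes and the difference between them used a model with a separate mean for each group. The contrasts share mice, so their results are not independent of each other. Between pairs of mice of a group, the variance was 4.74 to 21.3 times that of counting alone (chi-square over degrees of freedom). The fit was tested on simulated counts. Values in every mouse are given for Erg, chosen after its values were seen, and for 18 members chosen by rule, namely the 10 with the smallest p over all mice, the 2 with the smallest p in each other comparison, every DEG, and the highest per length in each role. The 41 members and 22 lists of other genes were chosen with earlier results of these data known. In each list, the genes named are those with the smallest p, apart from Smad9 and Svep1, named after their values were seen, and 2 further genes of these lists were not analysed here. Gene lengths and positions are from GENCODE M21 and promoters from RefSeq. Alternatives were DESeq2 1.42.0 (Wald test and size factors), limma-voom (3.58.1), other filters, thinned counts, a model without the other factor, the mice of a genotype alone, index columns with both treatments, each mouse left out in turn, and the numbers 1 to 4 within groups as a block.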

Additional observations from a re-analysis of the deposited data

Results flagged for a closer look

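For 10 of 164 sets of 4 mice (41 members in 4 groups), 1 mouse lay apart from the other 3 by Dixon's 95% criterion, and chance alone sets apart about 1 in 20. Among vehicle-treated CETPtg mice, S4 was above S1 to S3 for Fli1 (3.38 CPM against 2.6005 to 2.7001 CPM), Rasip1 (8.84 CPM against 6.67 to 7.02 CPM) and Sema3g (9.297 CPM against 6.6002 to 6.99 CPM). Among vehicle-treated APPtg/CETPtg mice, S8 was above S5 to S7 for Ptprb (41.6 CPM against 34.2 to 35.2 CPM) and Egfl7 (34.3 CPM against 28.97 to 29.3 CPM), and S7 was above the other 3 for Nr2f2 (13.6 CPM against 6.94 to 7.66 CPM). Among evacetrapib-treated APPtg/CETPtg mice, F was the highest for Sox7 (1.78 CPM against 1.57 to 1.58 CPM) and G for Nos3 (18.2 CPM against 13.3 to 13.96 CPM). H was the lowest for Cyyr1 (4.64 CPM against 5.39 to 5.48 CPM) and Myct1 (0.5102 CPM against 0.7302 to 0.754 CPM).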

How the results depend on the processing

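Of the 41 members, 35 kept the sign of their log2 fold change over all mice in each of 9 other settings and with each of the 16 mice left out. The members' median lay between 0.20 and 0.25 and their count at an unadjusted p below 0.05 between 22 and 27. In the Wald test of DESeq2, 59 genes were called over all mice, 73 in APPtg/CETPtg mice and 2 for the difference, and Mmrn2 (adjusted p 0.00250), Adgrl4 (0.0113), Tgm2 (0.0173), Zbtb46 (0.0233) and Cd93 (0.0492) were called over all mice. Without the filter on low counts, 35 genes were called over all mice, 9 in CETPtg mice, 88 in APPtg/CETPtg mice and 29 for the difference, with Mmrn2 (0.0363), Tgm2 (0.0366) and Adgrl4 (0.0407) over all mice, Adgrl4 in CETPtg mice and Tgm2 in APPtg/CETPtg mice. At an unadjusted p below 0.05, 20 members were then higher and 1 lower in CETPtg mice, among 1816 of 34733 genes. For the difference, 1 member then had a higher and 2 a lower effect, among 2181 genes. With thinned counts, 0 had a higher and 2 a lower effect, among 1193 of 17496 genes. With edgeR, 0 genes were called over all mice and 0 in APPtg/CETPtg mice in the index columns that hold both treatments (12 mice). Of the evacetrapib-treated mice, these columns hold only C, D, G and H. There, 22 members had an unadjusted p below 0.05 over all mice, 6 in CETPtg mice, with a median of 0.14, and 18 in APPtg/CETPtg mice. Of all 18279 genes tested there, 1189, 583 and 1757 passed in these comparisons, against 1473, 1079 and 1677 of 18609 in the main fit. For the difference, 1033 genes passed there, against 1271 in the main fit. Among them 3 members had a higher and 0 a lower effect in APPtg/CETPtg mice, so that Acvrl1 did not pass there. It also did not pass with at least 10 counts in every mouse or without A, C, E, F, S1, S2, S5 or S8. Without a genotype term, 1 gene was called over all mice. In APPtg/CETPtg mice, 2 were called from those 8 mice alone and 5 with the replicate numbers as a block. The cause of these changes was not tested.

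With single mice left out, the calls ranged from 0 (without B, D, E, F, H, S1, S3, S5 or S7) to 8 (without S8) over all mice, from 0 (without G) to 14 (without S8) in APPtg/CETPtg mice and from 0 to 1 (without S2) for the difference. The log2 fold change of Ramp2 ranged over -0.0281 to 0.0293, of Nr2f2 over -0.137 to 0.0356, of Bmx over -0.0311 to 0.124 and of Kank3 over -0.0283 to 0.169. Without a turn of sign, it ranged over 0.0623 to 0.149 for Sema3g and 0.0491 to 0.167 for Gja4. The range was 0.0930 to 0.303 for Myct1, 0.0622 to 0.187 for Clec14a and 0.0453 to 0.168 for Cd34. It was 0.0345 to 0.107 for Acvrl1, 0.0471 to 0.140 for Sox17, 0.115 to 0.248 for Foxq1, 0.0102 to 0.0604 for Itm2a and 0.0182 to 0.0579 for S1pr1. In the other settings, Myct1 was as low as 0.0379. Signs also turned for Ramp2 with DESeq2 (5.89e-04), limma-voom (0.00495) and the block (0.00125), and in the index columns for Cd34 (-0.00604), Nr2f2 (0.12) and Gja4 (-0.00668). Samples of equal number in different groups had a median correlation of -0.00601 (24 pairs), against 0.0150 (72 pairs) for other numbers, and the block was not used for other results. Low counts limit Myct1 most, with at least 11 in each mouse.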
